A study of Prunus avium with 27 samples.

Results

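The genes described here are the 332 of 28087 identifiers beginning with PRUPE whose RNA fell by December and fell again by January in flower buds of sweet cherry. They were chosen from the RNA values themselves. TPM (transcripts per 1000000) gives each transcript's share of a library, corrected for length. The date means were compared as log2(mean TPM + 1), and a gene was a member if its highest date mean was at least 5 TPM and its level dropped by at least 0.7 on that log2 scale in each of the 2 intervals. A highest date mean of at least 5 TPM was reached by 15551 of the 28087 identifiers, and these are called expressed genes below.

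Buds of the cultivar Burlat were taken from the same branches for RNA and chromatin on 21 October 2014, 5 December 2014 and 27 January 2015, which are 45 and 53 days apart. Per the labels the October and December buds were dormant and the January buds were non-dormant, so the dormancy label and the date cannot be told apart in January. There were 3 RNA libraries per date, and 2 libraries per date (replicates 2 and 3) for H3K4me3, histone H3 trimethylated at lysine 4. The labels do not say which trees the replicates came from, so each p-value reflects only how far these libraries differed, and that spread may be technical.

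Flower buds of temperate fruit trees stop visible growth in autumn and resume it only after prolonged cold, first losing an internal block on growth and then waiting for warmth. Over winter the transcripts of many genes change as buds pass through these stages. H3K4me3 is a mark placed on nucleosomes near the starts of transcribed genes, and its level often goes with the activity of the gene. The identifiers of the files are not paired with gene names (0 of 29449 matched the RefSeq table of 37283 genes), so members are given by scaffold and position, as the files give them, and the tissue could not be checked against marker genes.

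The median member stood at 26.5 TPM in October, 8.48 TPM in December and 2.56 TPM in January. In the 3 October libraries the median over the 332 members was 26.3, 25.0 and 27.4 TPM. In December it was 8.62, 8.05 and 7.22 TPM, and in January it was 2.22, 2.73 and 2.85 TPM. The 3 dates did not overlap in this median. The members together held 3.07% ± 0.0921 of all TPM in October, 1.08% ± 0.0400 in December and 0.436% ± 0.0430 in January (SD, n = 3). These values describe how members were chosen, and no test is made on them. In whole buds, fewer cells of a type and less RNA per cell cannot be told apart.

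**Figure D1:**
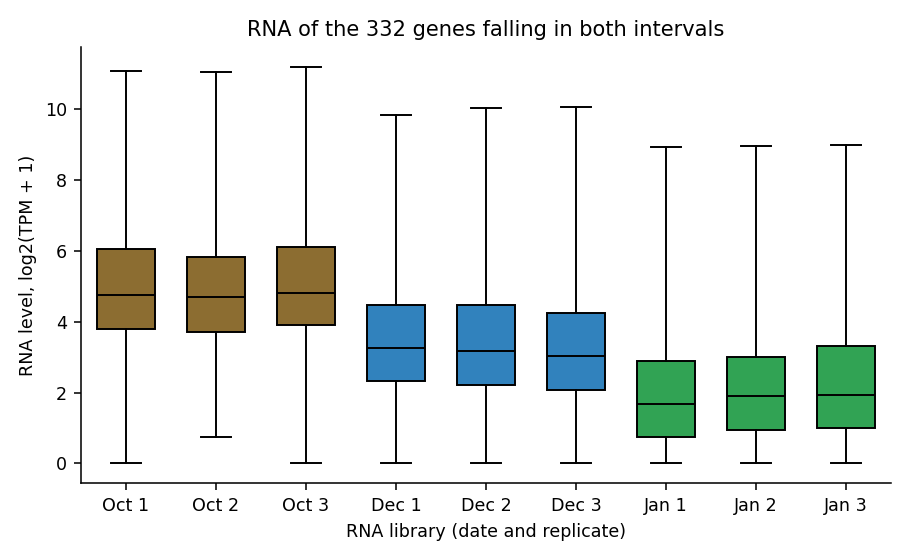
RNA level of the 332 members in each of the 9 RNA libraries as log2(TPM + 1); boxes span the quartiles, the line is the median and whiskers reach the lowest and highest member. The boxes step down between dates, with library medians of 25.0 to 27.4 TPM in October and 2.22 to 2.85 TPM in January.

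Members covered a wide range of levels at the start. Their October means ran from 5.21 to 2217 TPM, with quartiles of 13.7 and 61.3 TPM. In October 281 members reached 10 TPM, 59 reached 100 TPM and 6 reached 1000 TPM. At 100 TPM or more, libraries held 56 to 62 members in October, 15 to 17 in December and 7 each in January. By January 218 members had a mean under 5 TPM and 88 were under 1 TPM. Only 5 members were listed at 0 in all 3 January libraries, so most still had measurable RNA.

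The total fall from October to January was at least 4-fold on the log2(TPM + 1) scale for 285 members, at least 8-fold for 126, at least 16-fold for 39 and at least 64-fold for 3. The median total change was -2.71, with a range of -1.44 to -6.81. The median change was -1.45 for October to December and -1.13 for December to January. A fold on this scale understates the fall of members that end near 0.

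Single libraries followed the means in most members. All October libraries lay above all December libraries in 319 members, and all December libraries lay above all January libraries in 289. Both held in 286 members. Among all expressed genes these shares were 35.4%, 21.6% and 6.26%, but since the rule used these contrasts nothing is read from the difference. The median coefficient of variation between libraries of a date was 11.9% in October, 20.3% in December and 28.1% in January, so it was highest where levels were lowest. Within January, replicate 3 was the highest library for 160 of the 327 members with any January RNA, replicate 2 for 112 and replicate 1 for 55.

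The rule was applied again to 2 replicate numbers, and the libraries of the replicate left out were then read. Without replicate 1 the rule chose 297 genes, and in the replicate 1 libraries 283 of them (95.3%) were lower in December than in October and lower again in January. The same order was found in 331 of 366 (90.4%) for replicate 2 and in 322 of 376 (85.6%) for replicate 3. Among all expressed genes that order was found in 20.1%, 15.5% and 21% in the same libraries. Falls past both cuts were rarer. They were found in 223 (75.1%), 194 (53.0%) and 192 (51.1%) of the chosen genes in the libraries left out, beside 3.11%, 2.01% and 2.07% of expressed genes. A fall past both cuts is also a fall in that order, so its lower share was fixed in advance. The labels do not say which trees the replicates came from, so the shares describe only how alike these libraries were.

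Of the 332 members, 72 lay within 0.1 of a cut, and 157 fell by at least 1 in each interval. At the October to December cut, the nearest genes inside changed by -0.71 to -0.72, and the nearest outside by -0.69 to -0.70. At the December to January cut, the nearest inside changed by -0.70 to -0.71, and each of the nearest outside by -0.70. At the minimum level the nearest inside had October means of 5.21 to 5.22 TPM, and the nearest outside of 4.92 to 5.00 TPM. The set has no gap at its edges.

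The members differed in when they fell. The share of the total log2 fall reached by December was over 0.6 in 120 members (36.1%), called early here, from 0.4 to 0.6 in 162 (48.8%), called even, and under 0.4 in 50 (15.1%), called late. The median early member went from 26.8 to 4.81 and then 2.13 TPM. The median even member went from 25.3 to 8.86 and then 2.93 TPM, and the median late member from 31.1 to 15.0 and then 2.59 TPM. The classes therefore started and ended at like levels and differed most in December, which is how they were defined.

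**Figure D2:**
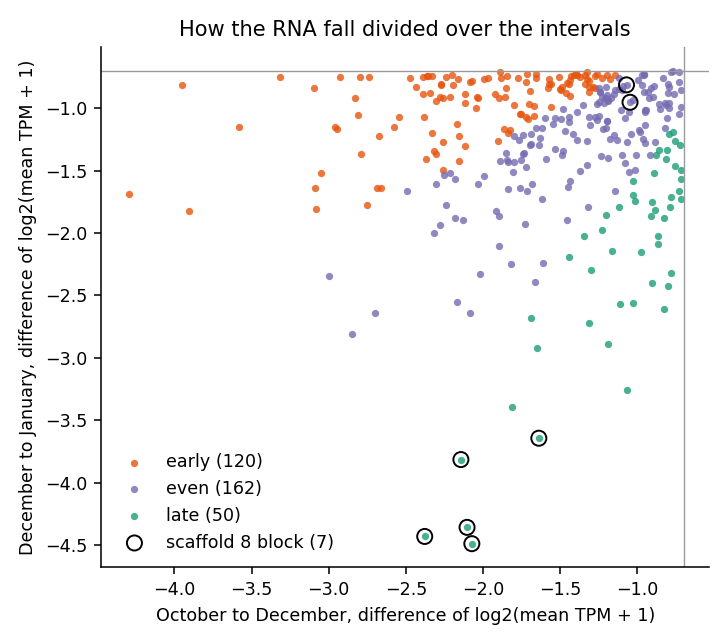
Each point is 1 of the 332 members, placed by its change from October to December and from December to January (difference of log2(mean TPM + 1)); colours give the early (120), even (162) and late (50) classes, lines mark the cuts at -0.7, and circles mark 7 neighbouring members on scaffold 8. The lowest points are 5 circled late members, which changed by -3.64 to -4.49 after December.

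The 6 members with the highest October level held 31.8% of the members' October TPM. They lay on scaffolds 4 and 8. The highest, on scaffold 4 at 2330106 to 2330729, had 2162, 2146 and 2343 TPM in October, 848, 722 and 841 in December and 422, 410 and 478 in January. On the same scaffold at 992672 to 994670, a member had 1970, 1991 and 1899 TPM, then 910, 1051 and 1067, then 489, 497 and 512. These members fell steadily and remained among the most abundant in January. The third on scaffold 4, at 20176778 to 20178611, had date means of 1018, 424 and 216 TPM. The dates did not overlap in any of these 3 members.

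The other 3 of the 6 lay close together on scaffold 8. Between 12279537 and 12370361 on that scaffold, a span of 90.8 kb with 13 PRUPE genes, 7 genes were members. The grouping was noticed after the values were seen. Of the 6 other genes in the span, 5 stayed under 1 TPM at every date, and the sixth, starting at 12311872, had date means of 92.2, 32.3 and 21.4 TPM and missed the second cut with a change of -0.57. The 7 members held 22.2% of the members' TPM in October, 20.7% in December and 15.0% in January. Without them the members still held 2.39%, 0.858% and 0.371% of all TPM.

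The 7 genes fell in 2 ways. The 5 on the minus strand fell 38.9-fold to 112-fold from October to January on the log2(TPM + 1) scale, and all 5 were late. The 2 on the plus strand fell 4.00-fold and 3.69-fold and were even. Of the 10 largest total falls among all members, 5 were these 5 minus strand genes.

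PRUPE_ppa013282mg, at 12297811 to 12298920 on the minus strand, had 2115, 1931 and 2146 TPM in October, 495, 622 and 353 in December and 11.8, 13.9 and 36.9 in January. At 12279537 to 12280787 the libraries gave 801, 715 and 734 TPM, then 179, 202 and 140, then 5.23, 4.76 and 12.6. At 12351219 to 12351588 they gave 1292, 1199 and 1132 TPM, then 343, 396 and 422, then 19.3, 16.0 and 54.8. In all 3 genes the dates stood well apart, and January replicate 3 was the highest January library.

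At 12363007 to 12363370, also on the minus strand, October gave 415, 365 and 390 TPM, December 94.8, 91.7 and 76.0, and January 5.52, 4.17 and 6.17. The fifth minus strand gene, at 12340805 to 12341150, was the most variable, with 98.7, 239 and 78.4 TPM, then 50.9, 18.5 and 8.29, then 0, 0 and 0.741. It had the largest total change of all members (-6.81), with a wide spread in October and December, although its dates did not overlap.

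The plus strand gene at 12288931 to 12289957 had date means of 946 ± 174, 457 ± 75.5 and 236 ± 33.0 TPM (SD, n = 3). The plus strand gene at 12369250 to 12370361 had 1312 ± 92.0, 624 ± 43.8 and 355 ± 30.7 TPM (SD, n = 3). Both stayed over 200 TPM in January, when the 5 minus strand genes had means of 0.247 to 30.1 TPM. The sources used here do not give how reads matching several genes were counted, so the values of neighbouring genes may not be independent.

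**Figure D3:**
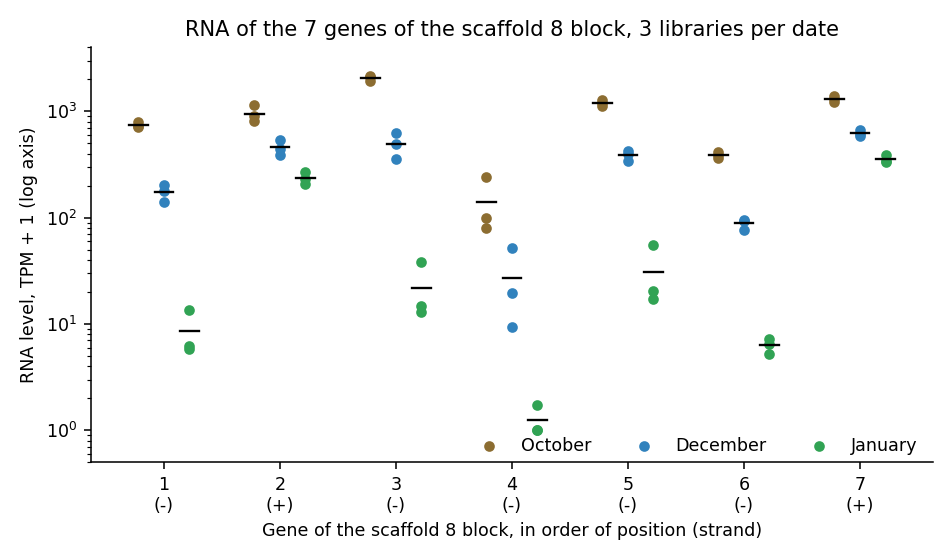
RNA level (TPM + 1, log axis) of the 7 members between 12279537 and 12370361 on scaffold 8, in order of position, with 3 libraries per date as points and the date mean as a line. The 5 minus strand genes drop to means of 0.247 to 30.1 TPM in January, while the 2 plus strand genes stay at 236 and 355 TPM.

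Outside the block, the largest falls were early ones. The member on scaffold 6 at 28255748 to 28257263 had 291, 200 and 187 TPM in October, 11.5, 7.85 and 12.3 in December and 2.51, 1.90 and 3.35 in January. The member on scaffold 7 at 11093055 to 11094679 had 80.2, 61.1 and 67.6 TPM, then 3.91, 5.78 and 1.46, then 0, 0.494 and 0.511. In both the dates did not overlap, and most of the fall had come by December.

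Members lay on all 8 main scaffolds, where they made up 1.81% to 2.63% of expressed genes. Neighbouring members formed 15 runs in the gene order of the files, 14 of 2 members and 1 of 3, with 31 members in all. The run of 3 lay on scaffold 4 between 9030204 and 9057059, with date means of 74.6, 25.1 and 11.4 TPM for its first gene, 10.9, 2.32 and 0.859 for the middle one and 117, 34.8 and 20.6 for the last. These 3 started from different levels, and the middle one fell furthest in proportion. Another member lay within 50 kb of 84 members (25.3%), and a member lay within 50 kb of 2729 of the 15219 other expressed genes (17.9%).

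Members had shorter loci. The median length of a member's locus was 1590 bp, beside 2705 bp over expressed genes. Loci under 1000 bp made up 96 of the 332 members (28.9%) and 1808 of the 15551 expressed genes (11.6%). Genes that fell by December and then stayed flat (1244, with a change after December within 0.35) had a median of 2192 bp, those that fell only after December (197) had 1826 bp, and those steady in both intervals (4417) had 3207 bp. TPM is divided by length, so a low cut in TPM passes a short gene on fewer reads. The same cut applied to all the groups compared here, and whether it bears on the members' shorter loci was not tested.

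Some non-members ran in parallel. Among expressed genes outside the set, the 4 whose log2(TPM + 1) correlated best over the 9 libraries with the members' median profile reached Pearson's r of 0.992 to 0.996. The closest, on scaffold 6 at 5486573 to 5491478, had date means of 88.0, 53.0 and 38.3 TPM and changed by -0.72 and -0.46. The next, on scaffold 3 at 15312800 to 15314771, had 125, 90.8 and 70.4 TPM. The remaining 2 lay at 2731391 to 2734625 on scaffold 4 and at 484593 to 490050 on scaffold 6. All 4 fell at both steps but by less than the rule asks, and r ignores size. The members' own r with that profile had a median of 0.970 and ran from 0.362 to 0.999.

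H3K4me3 was the measure that the rule did not use. The deposited signal was read in windows from 500 bp before to 1500 bp after a gene's start, and 284 members had a window joined to them alone, while 48 did not. Regions entered the test where 2 or more of the 6 libraries reached a signal of 10, as 181 of the 284 members did (63.7%), beside 11636 of 13516 joined expressed genes (86.1%). The 103 joined members under this filter had a median October level of 21.4 TPM, beside 33.6 TPM in the tested members, and 15 of them had at least 100 TPM. Of the 103, 44 stood at the lowest value that occurs in each of the 6 libraries. Signal at the start was therefore low or unmeasured in many members that had clear RNA in October.

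Of the 7 genes on scaffold 8, 6 had a signal of at most 1.85 in any library, including the gene with 2064 TPM in October. Only the one at 12369250 was tested. Its signal was 32.6 and 28.7 in October, 25.7 and 31.2 in December and 23.5 and 18.5 in January. January lay below October without overlap, but the change did not pass the test (limma adjusted p = 0.364). None of the 5 minus strand genes had a tested region.

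Over the 181 tested members the median signal was 93.9 and 99.9 in the October libraries, 60.9 and 66.5 in December and 41.4 and 34.3 in January. Over all 15360 regions tested it was 167 and 174, then 181 and 196, then 192 and 159. The members' median lay below that of all regions by 0.83 and 0.79 on the log2(signal + 1) scale in October, by 1.56 and 1.54 in December and by 2.18 and 2.18 in January. Both libraries of a date gave nearly the same distance, and the distance grew at each step. However, 13 of the tested members passed the filter through the October libraries alone, and so had a high October value by the filter. They are included in these medians and distances, so the filter bears on the step from October to December. Counts without them are given below where they differ.

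In December against October, H3K4me3 fell at 31 of the 181 tested members and rose at 1 (limma on log2(signal + 1), adjusted p under 0.05). This is 17.1% lower, beside 2.55% of all regions lower and 4.5% higher. Relative to the median change of all regions, which was 0.15, the members' median change was -0.67, with quartiles of -1.21 and -0.36, and 167 of 181 members lay below 0. Without the 13 members above, 31 were again lower and 1 higher, of 168. Their median relative change was -0.64, and 154 lay below 0.

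The number of members called in this interval depended on single libraries. With 1 library left out of the fit, 3 members were called lower without October replicate 2 (beside 0.664% of all regions), 14 without October replicate 3 (0.990%), 6 without December replicate 2 (0.697%) and 19 without December replicate 3 (2.12%). The count was 66 without January replicate 2 (beside 6.63%) and 63 without January replicate 3 (6.41%). With library medians aligned, 80 members were lower and 1 higher, beside 11.1% and 11.8% of all regions.

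In this interval, the largest called losses relative to all regions ran from -1.46 to -2.45. PRUPE_ppa006392mg, on scaffold 5 at 14193449 to 14195729, had a signal of 172 and 162 in October, 41.2 and 49.6 in December and 19.0 and 21.5 in January. Its December change was -1.86 (SE 0.24, limma adjusted p = 0.000377), or -2.01 relative to all regions. Its loss after December was called too (adjusted p = 0.0277). Its RNA went from 37.1, 27.9 and 34.1 TPM to 19.5, 23.8 and 15.1 and then 3.18, 3.77 and 9.49. The dates did not overlap in the signal, and the mean December RNA was 19.5 TPM.

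The greatest called loss by December was on scaffold 6 at 4438744 to 4439707, where October gave 75.1 and 83.6, December 8.01 and 28.4 and January 10.1 and 10.2 (adjusted p = 0.0121). Its mean RNA fell from 83.5 to 22.6 and then 7.77 TPM. At 25307218 to 25311678 on scaffold 1 the signal was 140 and 153, then 40.0 and 62.8, then 14.4 and 21.5, and both intervals were called (adjusted p = 0.00516 and 0.0138). For the scaffold 6 gene no change was called in the second interval (adjusted p = 0.721), and its December loss, before the median of all regions is taken off, was -1.45 without December replicate 2, beside -2.30 with it, and was then not called (adjusted p = 0.0844). Whether the 2 genes differed in the second interval was not tested. The last 2 of the 5, on scaffold 3 at 2810582 and on scaffold 6 at 9856610, each lost the call in 6 of 13 alternatives.

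The sole gain was at PRUPE_ppa007395mg, on scaffold 8 at 16182126 to 16184042. Its signal was at the lowest value in both October libraries (0.183 and 0.154), was 20.7 and 20.2 in December and was 31.9 and 27.6 in January. The December change was 4.20 (SE 0.79, limma adjusted p = 0.00551), or 4.05 relative to all regions. This change depends on the pseudocount because October was at the minimum. Its RNA went the other way, from 288, 234 and 256 TPM to 152, 158 and 135 and then 78.6, 80.6 and 81.8. The dates did not overlap in either measure and stood in opposite order.

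In January against December, H3K4me3 fell at 31 of the 181 members and rose at 0 (limma adjusted p under 0.05). This is 17.1%, beside 1.3% of all regions lower and 0.436% higher. At an unadjusted p under 0.05, 86 members were lower and 0 higher, beside 10.7% and 2.42% of all regions. On reads recovered from the signal, edgeR called 39 lower and 0 higher, beside 2.5% and 2.43%. The median change relative to all regions was -0.41, with quartiles of -1.04 and -0.09, and 147 of 181 members lay below 0. Without the 13 members that passed through October alone, limma again called 31 lower and 0 higher, of 168. Their median relative change was -0.40, and 139 lay below 0. With library medians aligned, 44 were lower and 0 higher, beside 2.94% and 2.93% of all regions.

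Single libraries moved this count too. It was 17 without December replicate 3, when 0.599% of all regions were lower, and 9 without January replicate 3, beside 0.319%. It was 82 without January replicate 2, when 24.0% of all regions were lower, so that the count rose with that of all regions. December libraries enter both intervals, so the 2 intervals are not independent, and their values stand side by side only.

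Of the 5 largest called losses after December, the one on scaffold 3 at 8576431 went from 35.5 and 67.6 in December to the lowest value in both January libraries, while its October libraries gave 0.183 and 31.5. Its call (adjusted p = 0.0404) was lost without December replicate 3 (0.208) and without January replicate 3 (0.226), and in 3 other alternatives. The call of the gene on scaffold 1 at 2826381 was also lost in 5 of 13 alternatives. On scaffold 7 at 17180679 to 17182242 the signal was 52.0 and 73.4, then 15.9 and 31.4, then at its lowest in both January libraries. On scaffold 1 at 10528539 to 10530578 it was 82.2 and 85.0, then 45.8 and 61.4, then 5.95 and 0.185.

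In both genes the step after December was the called one (adjusted p = 0.00385 and 0.00201), and the step before was not (0.175 and 0.478). The RNA of the scaffold 1 gene had means of 25.3, 15.0 and 4.67 TPM. Its January libraries, at 4.64, 4.69 and 4.69 TPM, agreed closely.

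From October to January, H3K4me3 fell at 108 of the 181 members and rose at 1 (limma adjusted p under 0.05). This is 59.7%, beside 9.49% of all regions lower and 5.68% higher. The members' median change relative to all regions was -1.13, with quartiles of -2.25 and -0.58, and 175 of 181 members lay below 0. Without the 13 members that passed through October alone, 105 of 168 were lower and 1 higher. Their median relative change was -0.99, with quartiles of -1.79 and -0.56, and 162 lay below 0. With library medians aligned, 124 were lower and 1 higher, beside 17.4% and 18.8% of all regions, and without those 13 members 120 were lower and 1 higher. Leaving out 1 library moved this count, and the count over all regions moved too.

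The members' regions were weaker than most, and weaker regions were called lower more often. The members were therefore also read within 4 groups of 3840 regions each, ordered by mean signal over the 6 libraries. In the weakest group 51 of 92 members were lower, beside 17.7% of its regions. In the next it was 36 of 53, beside 14.6%, then 13 of 20, beside 4.09%, and in the strongest group 8 of 16, beside 1.61%. The members' share was 50.0% to 67.9% in each group. The 13 members that passed through October alone all lay in the weakest group, where 48 of the other 79 were lower, beside 17.6% of its regions without those that passed that way.

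**Figure D4:**
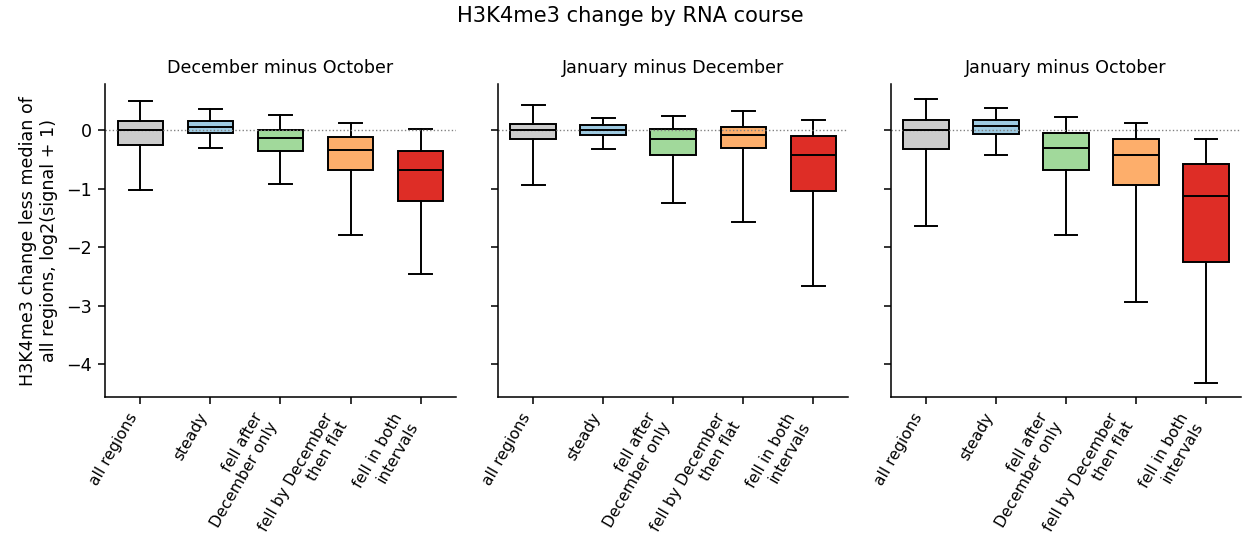
Change of H3K4me3 on the log2(signal + 1) scale, less the median change of all regions, for 15360 regions tested and for those joined to steady genes (3435), genes that fell only after December (147), genes that fell by December and stayed flat (893) and members (181); boxes span quartiles, lines are medians and whiskers reach the 5th and 95th percentiles. The members' box is the lowest in each panel, with a median of -1.13 from October to January. Without the 13 members that passed the filter through October alone, that median was -0.99.

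Genes with other RNA courses had smaller median changes at this mark. Among genes that fell by December and stayed flat, 288 of 893 were lower from October to January, with a median relative change of -0.41. In the intervals their median was -0.33 and then -0.08. Genes that fell only after December had 35 of 147 lower and a median of -0.29, reached as -0.13 and then -0.15. Steady genes had 64 of 3435 lower and a median of 0.07. The members' medians were -0.67 and then -0.41, or -0.64 and then -0.40 without those that passed the filter through October alone. The other groups were not reduced in this way. These groups of genes were set side by side, and their differences were not tested.

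Within the members, the classes by timing of the RNA were set beside the mark, and their differences were not tested. In December against October 13 of 63 early, 16 of 95 even and 2 of 23 late members were lower, beside 2.55% of all regions. The median relative changes of the classes were -0.85, -0.64 and -0.58. In January against December 9, 17 and 5 were lower, beside 1.3% of all regions, with medians of -0.39, -0.46 and -0.29. These medians include the members that passed the filter through October alone. Early members had the lowest of these medians by December. The members that passed that way were early or even, not late, so the filter bears on this order and nothing is read from it. Late members did not have the lowest median after December. From October to January 40, 56 and 12 were lower, beside 9.49% of all regions. Without those that passed through October alone it was 38 of 55 early, 55 of 90 even and 12 of 23 late members, and the interval counts did not change.

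Across the 181 tested members, the RNA change and the H3K4me3 change had Pearson's r of 0.33 and Spearman's rho of 0.33 for October to December, 0.04 and 0.04 for December to January, and 0.30 and 0.28 for October to January. The points share libraries, and the rule cuts off small RNA changes. Members that passed the filter through October alone are included, which bears on both comparisons with October. No correlation without them was computed, so these values are descriptions.

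A loss was called in none of the 3 comparisons for 71 members. The same count over all regions was not made, so nothing is read from this number. October signal lay above December signal in every library for 135 of 181 members, beside 19.8% of all regions, and December signal above January signal for 118, beside 28.1%. The full order over the 3 dates was found in 90 members (49.7%), beside 7.77% of all regions. With library medians aligned it was 96 members (53.0%), beside 9.62%. The filter fixed a high October value in the 13 members that passed through October alone. Leaving such regions out on both sides, the counts in the same order were 122, 113, 85 and 91 of 168 members, beside 19.1%, 28.2%, 7.64% and 9.55% of 15228 regions.

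Some regions ended at the lowest value of the files. In 54 regions both October libraries reached 20 and both January libraries stood at the lowest value, and 6 of these regions belonged to members, which is 3.31% of the tested members, beside 0.352% of all regions. None of the 6 passed the filter through October alone, and without regions that did it was 6 of 168 members, beside 0.269%. On scaffold 7 at 10843815 to 10845989 the October signal was 53.6 and 79.1 and the December signal 13.6 and 26.4 (October to January adjusted p = 3.49e-05). On scaffold 1 at 2826381 to 2827029 they were 51.8 and 57.7, then 11.9 and 14.3 (adjusted p = 0.00013). RNA did not end at 0 in either gene, with January means of 2.45 and 1.58 TPM.

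On scaffold 1 at 41457298 and on scaffold 6 at 7832070, the December libraries differed widely (0.151 and 19.7, and 0.151 and 12.5). With October at 61.7 and 52.0 in the one and 27.1 and 55.0 in the other, both ended at the lowest value (adjusted p = 0.00481 and 0.0144). The size of a loss that ends at the minimum depends on the pseudocount. Of the 6 members with the highest October level, those on scaffold 4 did not reach the minimum signal. On scaffold 4 at 2330106 the signal was 194 and 198, then 141 and 143, then 128 and 97.0. Its change from October to January was -0.81 (SE 0.16, limma adjusted p = 0.00279), or -0.86 relative to all regions.

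The member at 992672 on scaffold 4 had 362 and 340, then 347 and 370, then 263 and 221, with no called change by December (adjusted p = 0.897) and a called loss by January (adjusted p = 0.00931). Its RNA had fallen to 1009 TPM from 1953 TPM by December, while the mark's libraries of the 2 dates overlapped. At 20176778 on scaffold 4 the signal was 122 and 113, then 122 and 141, then 93.0 and 77.0, and no change was called (adjusted p = 0.0851 for October to January).

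**Figure D5:**
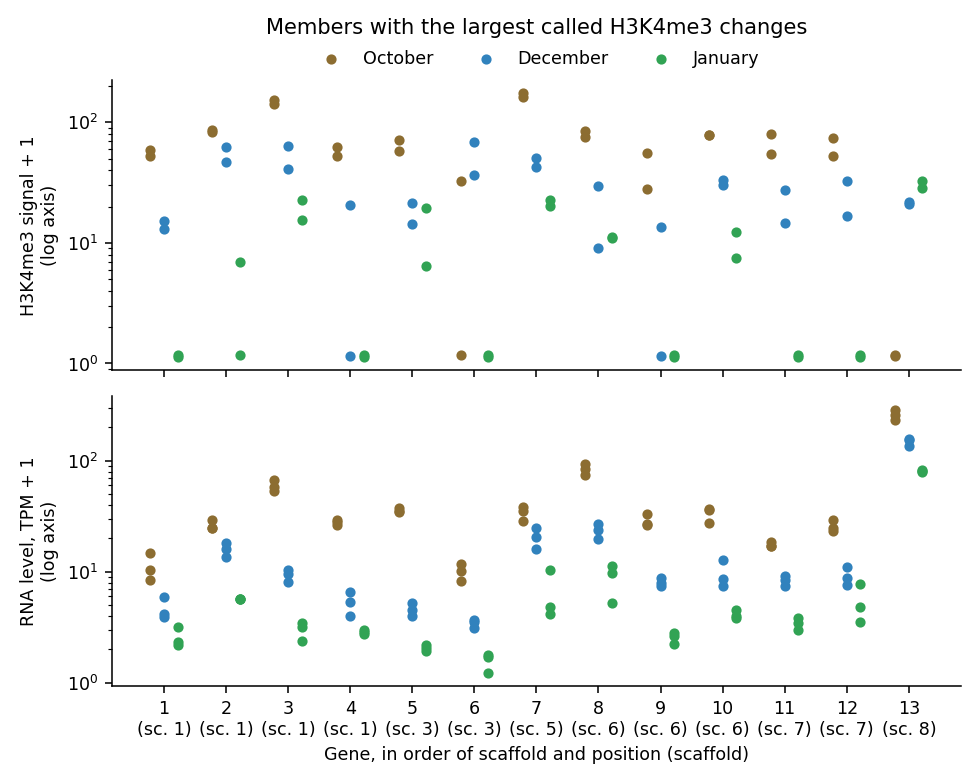
H3K4me3 signal + 1 (2 libraries per date) and RNA level as TPM + 1 (3 libraries per date), both on log axes, for the 13 members with the largest called changes of the mark, in order of scaffold and position. In 12 of them the mean of both measures is lower in January than in December, and in the last, on scaffold 8, the signal rises from its minimum to 31.9 and 27.6 while RNA falls.

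Among the tested members with no called loss, the largest RNA falls had weak signal. On scaffold 4 at 9001620 to 9005049 the signal was 16.7 and 21.6 in October and at its lowest in all 4 later libraries, and the adjusted p was 0.162, while RNA fell from 36.9 to 4.62 and then 0.640 TPM. On scaffold 5 at 15262041 to 15262730 the signal was 17.2 and 16.3, then 0.151 and 4.64, then 0.132 and 1.48 (adjusted p = 0.142). Both passed the filter through October alone, which fixes that their later libraries lay lower. The first was called in 4 of 13 alternatives, with adjusted p from 0.00447 by edgeR to 0.451 without October replicate 2.

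The other 2 had widely spread October RNA. On scaffold 3 at 506026 to 506230 RNA was 21.2, 5.12 and 50.1 TPM in October, and on scaffold 2 at 3291934 to 3292972 it was 15.0, 14.3 and 86.8 TPM, with 1 library far above the others. Their signals changed by -0.94 and -1.23 from October to January (limma adjusted p = 0.303 and 0.153), or by -0.98 and -1.27 relative to all regions. The second was called without October replicate 2 (adjusted p = 0.0303) and without January replicate 3 (0.0457).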

How the data were processed

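The authors deposited RNA levels in TPM, with each library summing to 1000000, a unit that keeps no depth. For RNA the submitters' processing notes list TopHat and Picard, and FastQC, Trimmomatic, Bowtie2, Picard and DiffBind for chromatin, without versions. The RNA libraries were stranded, per the labels' protocols. For H3K4me3 the authors deposited a normalised signal, called TMM per the file headers. The sources used here do not give the genome build, the program that gave TPM or any subtraction of a control. The 6 H3 and 6 input libraries were not analysed here. All signal values (100%, within 0.01) were whole multiples of 1 step per library, which gave 14216613 to 28126160 recovered reads. The lowest value was held by 25.9% to 32.8% of regions, depending on the library.

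Means used log2(TPM + 1). The signal was tested with limma 3.58.1 (R 4.3.3, intensity trend, two-sided, Benjamini-Hochberg over 15360 regions) on log2(signal + 1) in all 6 libraries, and edgeR 4.0.16 on recovered reads was an alternative, with 80, 39 and 122 members called for December against October, January against December and January against October. Of all regions, edgeR called 10.0% lower and 9.73% higher, then 2.5% and 2.43%, then 15.6% and 16.8%, in the same order. Both limma and edgeR were run on simulated data whose changed regions had a mean signal above the median. Most tested members had weaker regions, which those runs do not cover. Of 25635 regions, 23468 (91.5%) were joined to exactly 1 gene. The strand was read from the window. Named genes were the 6 highest in October, the 6 largest falls, the 3 nearest to each cut on each side, the 5 largest called signal losses and gains per contrast, the 4 largest RNA falls without a called loss, runs of neighbours and the 4 most similar non-members. Members and lists were chosen with earlier results of these data known.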

Additional observations from a re-analysis of the deposited data

How the results depend on the processing

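The counts of members called in H3K4me3 within each interval moved widely, and so did the counts over all regions. For December against October, a fit of the compared dates alone gave 77 members lower and 3 higher. Beside these, 6.83% of all regions were lower and 28.4% higher. By edgeR it was 79 and 1, beside 10.0% and 9.73%. Pseudocounts of 0.1 and 10 gave 20 and 48 members lower, beside 1.88% and 3.76% of all regions. Against 32 called of 181 for December against October, 81 were called with library medians aligned, 2 with no filter on low signal (of 284), 21 with a pseudocount of 0.1, 50 with a pseudocount of 10, 80 in a fit of the compared dates alone and 80 by edgeR, and leaving out 1 library gave 4 to 69. For January against December, with 31 called, no filter gave 0 by limma, with 80 at an unadjusted p under 0.05 and 39 by edgeR on the filtered regions, and leaving out 1 library gave 9 to 82. For January against October, with 109 called, no filter gave 56, and leaving out 1 library gave 82 to 115. Testing 25635 regions in place of 15360 adds regions near the minimum to the adjustment and to the shared spread. Of all 25635 regions, 0.172% were then lower for December against October, 0% for January against December and 2.07% for January against October. No result reversed its direction under any alternative run. The replicate block gave 33, 37 and 112 calls. With it, 2.66%, 2.86% and 9.97% of all regions were lower, and 4.88%, 0.671% and 5.18% were higher. The deviations of same-numbered libraries correlated at 0.53 between October and December, -0.10 between December and January and -0.07 between October and January. Same-numbered libraries thus deviated together in October and December, and the labels do not say what they share. The rule chose 141 genes with a pseudocount of 5, all among the 332, and 297 to 403 with 1 library or 1 replicate number left out. RNA depth is unknown, and 2 libraries per date limit the H3K4me3 tests.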

Other observations

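Of 1362 identifiers beginning with EPlPPEG, which the rule leaves out, 174 had a date mean of at least 5 TPM. The same cuts were met by 14 of these, and in 5 of the 14 the libraries of the 3 dates did not overlap. The members without a joined H3K4me3 window, 48 in number, had a median locus length of 893.5 bp, beside 1779 bp in the tested members and 1491 bp in the joined members under the filter.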
